A study of Homo sapiens with 8 samples.

Results

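The genes described here encode the nuclear-encoded part of the respiratory chain, taken by name from the array. A gene was a member if its name on the array was NDUFA, NDUFB, NDUFC, NDUFS or NDUFV with a number, SDHA to SDHD, or began with UQCR, COX4 to COX8 or ATP5, which gave 85 of the 34809 gene names. Of these, 80 passed the filter on dim probes, among 20464 genes tested. The tested members were 36 genes of complex I, 4 of complex II, 7 of complex III, 14 of complex IV and 16 of complex V, with NDUFA4 counted under complex IV. A further 3 names matched the rule but belong to no subunit of these complexes, namely ATP5S, ATP5SL and COX4NB.

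HuCCT1, an established human cholangiocarcinoma cell line, carried 1 of 4 hairpin vectors, and each vector was profiled on 2 single-colour arrays. The vectors shControl and shNontarget served as control, and shBEX2-1 and shBEX2-2 directed a hairpin against BEX2 in the BEX2-knockdown sublines. The labels name no further treatment, and each vector stands for 1 subline. The methods print target sequences for the 2 hairpins that are reverse complements of each other over nearly their whole length, so the sublines do not represent separate target sites. The study describes its control hairpin as one against luciferase, without saying which of the control vectors that was, and no source says whether a vector's 2 arrays were from separate cultures, so p-values measure only the spread between these arrays, which may be technical.

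The respiratory chain passes electrons from NADH and succinate to oxygen in the inner mitochondrial membrane and pumps protons, and ATP synthase uses the proton gradient to make ATP. Complex I oxidizes NADH, complex II oxidizes succinate, complex III passes electrons from ubiquinol to cytochrome c, complex IV reduces oxygen, and complex V is ATP synthase. In complexes I, III, IV and V, some core subunits are encoded by the mitochondrial genome, whereas all subunits of complex II are encoded in the nucleus. Around the subunits that carry the redox centres or the catalytic sites sit many small supernumerary subunits. The transcription factors NRF1 and GABP, a member of the ETS family, are known regulators of many of these genes.

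Promoter sequences are shown for the members with the largest rise in complexes I, III, IV and V, since these carry the comparisons below. Each covers the 250 bases before the gene's start in RefSeq on GRCh38.p14, written 5′ to 3′ along the gene, and capitals mark a match to the NRF1 letters GCATGCGC or the ETS letters CCGGAAG on either strand. They come from chr5:140647631-140647880, minus strand, for NDUFA2, chr5:132866392-132866641, plus strand, for UQCRQ, chr11:63974370-63974619, plus strand, for COX8A, and chr17:48892537-48892786, plus strand, for ATP5G1 (now ATP5MC1).
NDUFA2: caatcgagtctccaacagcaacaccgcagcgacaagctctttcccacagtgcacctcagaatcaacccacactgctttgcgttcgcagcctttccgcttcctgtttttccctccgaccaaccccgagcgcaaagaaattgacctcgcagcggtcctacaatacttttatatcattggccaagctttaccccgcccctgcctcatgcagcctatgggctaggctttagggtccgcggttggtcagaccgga
UQCRQ: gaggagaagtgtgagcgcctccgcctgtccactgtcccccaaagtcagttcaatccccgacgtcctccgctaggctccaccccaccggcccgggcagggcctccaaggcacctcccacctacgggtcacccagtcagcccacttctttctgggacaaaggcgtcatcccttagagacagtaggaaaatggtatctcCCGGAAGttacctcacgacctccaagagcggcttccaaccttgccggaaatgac
COX8A: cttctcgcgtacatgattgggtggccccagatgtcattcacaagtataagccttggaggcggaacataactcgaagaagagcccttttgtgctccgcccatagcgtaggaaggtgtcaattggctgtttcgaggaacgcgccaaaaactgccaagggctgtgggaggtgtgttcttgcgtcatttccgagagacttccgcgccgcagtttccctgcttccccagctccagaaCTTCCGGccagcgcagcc
ATP5G1: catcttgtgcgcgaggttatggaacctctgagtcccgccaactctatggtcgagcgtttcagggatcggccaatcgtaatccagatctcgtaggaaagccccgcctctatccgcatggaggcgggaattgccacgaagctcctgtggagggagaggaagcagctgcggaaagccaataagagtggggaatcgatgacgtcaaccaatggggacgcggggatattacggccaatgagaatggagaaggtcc

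UQCRQ had 1 ETS match, which began 54 bases before the start, and COX8A had 1, which began 18 bases before it. NDUFA2 and ATP5G1 held neither run of letters in this window. Of the 80 tested members, 65 had a promoter in the table. The ETS letters were found in 17 of these (26.2%) and in 8.52% of all 35116 promoters of this length, or 13.3% of the 13636 promoters of tested genes matched by symbol. The NRF1 letters were found in 12 members (18.5%), in 2.63% of all promoters and in 3.81% of those of tested genes. By complex, the NRF1 letters were in 4 of 31 promoters of complex I, 2 of 3 of complex II, 0 of 6 of complex III, 2 of 12 of complex IV and 4 of 11 of complex V. A match is a run of letters and not a measured binding site.

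Levels are given as log2 of the processed intensity over the 75th percentile of the same array, read from each gene's brightest probe. Each array had 58717 spots, of which 59.8% to 64.6% exceeded background clearly and none was saturated. With 2 arrays per vector, their number sets the precision. The targeted gene BEX2 had levels from -3.91 to -2.70 in control cells and from -5.54 to -4.60 in BEX2-knockdown cells, and in shBEX2-1 cells it was not well above background. Its log2 fold change was -1.63 (SE 0.32, adjusted p = 0.0116 by limma) against both control vectors and -1.43 (SE 0.30, adjusted p = 0.0104) against shControl, with the size limited by the shBEX2-1 arrays. With normexp and quantile normalization they were -0.70 and -0.59, and the call was lost with only shNontarget as control (adjusted p = 0.0786) and, against shControl, without shControl replicate 1 (adjusted p = 0.0968) or by the methods' t-test (adjusted p = 0.0563). The biliary epithelial markers KRT7, KRT19 and EPCAM lay between 4.21 and 8.66 on every array. Of 14 markers of other cell types, ALB, TTR, COL1A2 and PECAM1 were not well above background on any array, whereas SERPINA1, COL1A1, CD14, VWF and CDH5 were on all 8. The slide was the same for all arrays, and so was the scan, but control cells occupied row 1 of the slide and BEX2-knockdown cells row 2, so that row and knockdown cannot be told apart. In bulk RNA, fewer cells with a transcript and less of it per cell cannot be told apart either.

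The 2 shNontarget arrays stood apart from each other for the respiratory chain, which bears on every comparison that uses them. The mean level of the 80 members was 3.54 and 3.38 on the shControl arrays, 4.14 and 3.06 on the shNontarget arrays, 3.82 and 3.75 on the shBEX2-1 arrays, and 3.73 and 3.70 on the shBEX2-2 arrays. The shNontarget arrays were thus the highest and the lowest of the 8, and both sublines lay above both shControl arrays. Replicate 1 exceeded replicate 2 in 75 of 80 members in shNontarget cells, with a median difference of 1.18, whereas the median over all genes was -0.098. The exceptions were NDUFV1, NDUFB9, SDHA, COX6A1 and COX6A2. More than 1 on the log2 scale separated the shNontarget arrays for 56 members (70%), and for 34.9% of all genes. In the other vectors no member differed by that much, and the median differences were 0.16 in shControl, 0.081 in shBEX2-1 and 0.041 in shBEX2-2 cells. The offset of the shNontarget arrays was not particular to the respiratory chain, since its median was 1.10 over 76 cytosolic ribosomal proteins, 1.10 over 76 mitochondrial ribosomal proteins and 1.08 over 37 proteasome subunits, lists that were added after the data were seen.

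**Figure D1:**
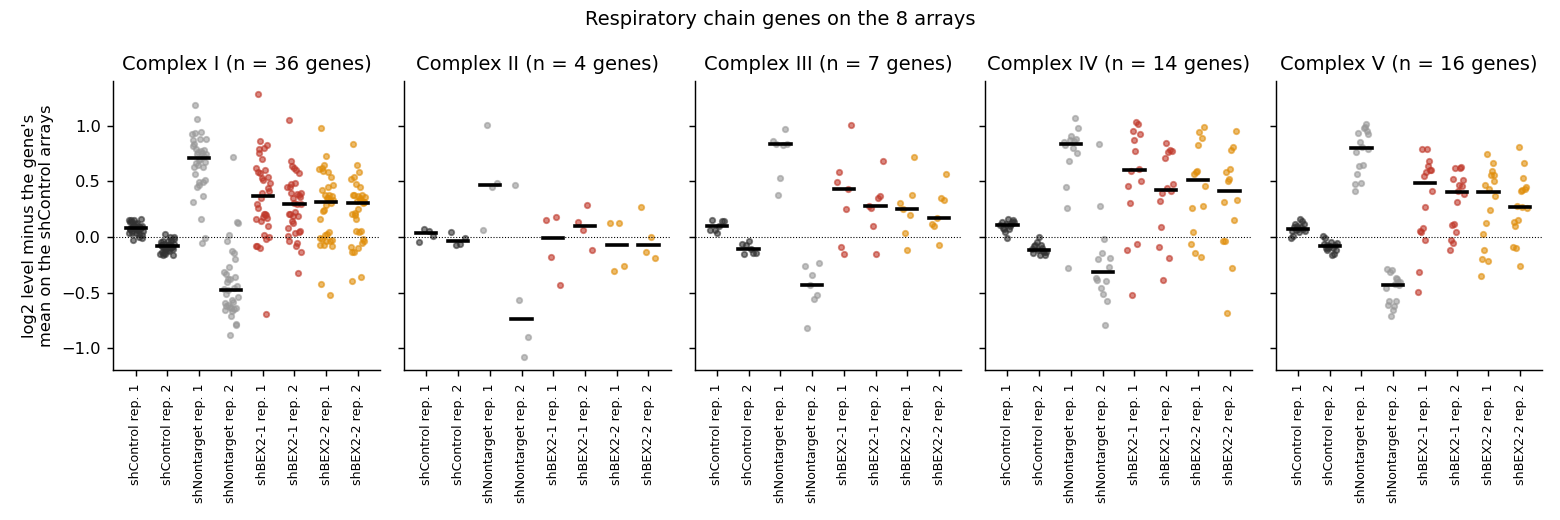
Level of each tested member on each of the 8 arrays, as log2 level minus the gene's mean on the shControl arrays (y axis), by complex. Points are genes and bars their median. The members of all complexes spread upwards on shNontarget replicate 1 and downwards on replicate 2, and in complexes I, III, IV and V the medians of the 4 BEX2-knockdown arrays lie above 0.

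Against both control vectors, few respiratory chain genes passed the test. NDUFA2, an accessory subunit of the matrix arm of complex I, and NDUFB3, an accessory subunit of its membrane arm, rose in BEX2-knockdown cells. These were 2 of 80 members, where 12.9% of all genes were called in either direction, 6.68% as higher and 6.26% as lower. The median log2 fold change of the members was 0.26 and that of all genes 0.027, and 63 of 80 values were above 0. By complex, the median was 0.23 for complex I, -0.053 for complex II, 0.22 for complex III, 0.27 for complex IV and 0.32 for complex V.

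NDUFA2 was read by a probe at chr5:140025149-140025208 of hg19. Its level was 3.49 and 3.32 on the shControl arrays, 4.24 and 3.07 on the shNontarget arrays, 4.69 and 4.45 on the shBEX2-1 arrays, and 4.39 and 4.24 on the shBEX2-2 arrays. All 4 BEX2-knockdown arrays lay above all 4 control arrays, though shBEX2-2 replicate 2 barely exceeded shNontarget replicate 1. The fitted change was 0.91 (SE 0.24, adjusted p = 0.0383), or 1.88-fold.

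NDUFB3 had levels of 3.38 and 3.19 in shControl cells, 3.78 and 2.91 in shNontarget cells, 3.98 and 3.91 in shBEX2-1 cells, and 4.01 and 3.93 in shBEX2-2 cells. Again no control array reached a BEX2-knockdown array, and the change was 0.64 (SE 0.18, adjusted p = 0.0477), or 1.56-fold. COX8A, a small subunit of complex IV, had levels of 5.70 and 5.38 in shControl cells, 6.30 and 5.28 in shNontarget cells, 6.47 and 6.32 in shBEX2-1 cells, and 6.53 and 6.49 in shBEX2-2 cells. It was the third member whose groups did not overlap, where 11.4% of all genes had all BEX2-knockdown arrays above all control arrays, and its change of 0.79 (SE 0.22) had an adjusted p of 0.0502. With the replicate number as a block limma called 4 members (5%), adding COX8A (adjusted p = 0.0347) and COX7A2 (adjusted p = 0.0405). In that setting 12% of all genes were called. The count rested on single arrays. It was 37, all of them higher, without shNontarget replicate 1, where 23.1% of all genes were called. Without shNontarget replicate 2 it was 4 (5% of the members), where 21.1% of all genes were called. Without any single one of the other arrays it was 0, where 6.07% to 8.32% of all genes were called. In those settings 4 to 7 members had an unadjusted p under 0.05. Within replicate number 1, the members' median of BEX2 knockdown minus both controls was -0.061, with 33 of 80 higher, and within number 2 it was 0.58, with 75 of 80 higher.

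Without the shNontarget arrays, respiratory chain genes were mostly higher in BEX2-knockdown cells than in shControl cells. Of the 80 members, 41 rose and 1 fell, where 33.4% of all genes were called, 17.2% as higher and 16.2% as lower. The median log2 fold change was 0.34 over the members and 0.019 over all genes. In 50 members all 4 BEX2-knockdown arrays lay above both shControl arrays, as in 28.4% of all genes, and in 5 they lay below both, as in 26.5% of all genes. Only the shControl arrays stood for the control here. Without shControl replicate 2 the median was 0.23 over the members and 0.012 over all genes. Without shControl replicate 1 it was 0.41 over the members and 0.026 over all genes. Fewer members were called in either setting, in which the lone shControl array is assumed to vary like the BEX2-knockdown arrays. The same direction was seen within each replicate number, with a median of 0.26 (59 of 80 higher) within number 1 and 0.38 (70 of 80 higher) within number 2. The comparisons with and without shNontarget share the shControl and BEX2-knockdown arrays and are not independent.

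**Figure D2:**
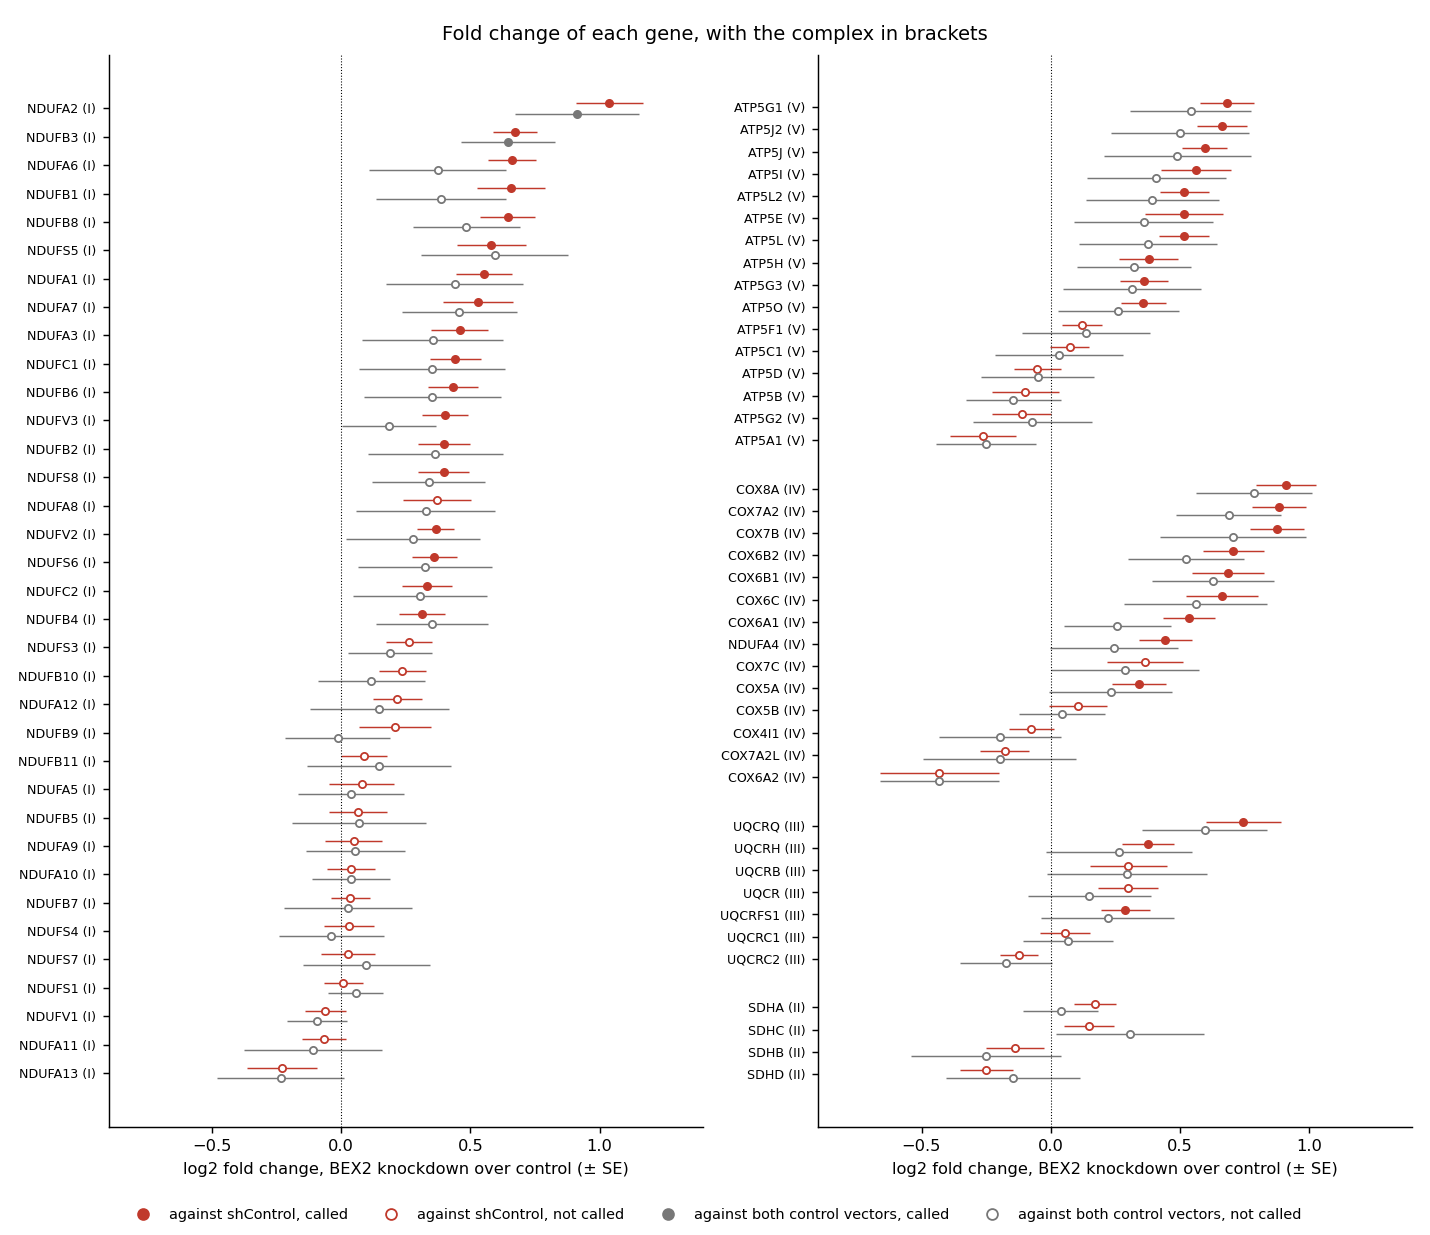
Log2 fold change of BEX2-knockdown over control arrays for the subunit genes named on the y axis (x axis, bars are SE), grouped by complex. Red points are against shControl and grey points against both control vectors, and filled points were called. The red error bars are mostly shorter, and more of the red points are filled.

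In complex I, 18 of 36 members rose and 1 fell against shControl, with a median of 0.32. Across all genes 17.2% rose and 16.2% fell in this comparison, which is also the one used for the complexes below. NDUFA2 rose most, by 1.04 (SE 0.13, adjusted p = 0.00121), or 2.05-fold. In the matrix arm, the module that binds NADH (8 members) had 4 rises, NDUFA2, NDUFV2, NDUFV3 and NDUFS6, and the module that reduces ubiquinone (8 members) had 3, NDUFA6, NDUFA7 and NDUFS8. In the membrane arm 11 of 20 members rose, with values from 0.31 for NDUFB4 to 0.67 for NDUFB3. Among these, NDUFC2 rose by 0.33 (SE 0.096) on its brightest probe, while its other probe gave -0.39.

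Of the conserved subunits of complex I, some were called as higher and others were not, and differences between them were not tested. NDUFV2 (0.36, SE 0.073) and NDUFS8 (0.40, SE 0.10), which carry iron-sulphur clusters, were among the rises above, whereas NDUFS7 (0.028, SE 0.10), which carries one as well, did not pass the test, nor did NDUFS3 (0.26, SE 0.090) beside it. NDUFS1, which carries iron-sulphur clusters, had a value of 0.0080 (SE 0.075) and NDUFV1, which binds NADH and flavin, -0.061 (SE 0.080), and neither passed the test.

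No member of complex II passed the test by limma, 1 of 4 had an unadjusted p under 0.05, and its median of 0.0049 turned to -0.077 under quantile normalization. SDHA, the flavoprotein, had a value of 0.17 (SE 0.082), SDHB, the iron-sulphur protein, -0.14 (SE 0.11), and the membrane anchors SDHC and SDHD 0.15 (SE 0.099) and -0.25 (SE 0.10). SDHD was called as lower under quantile normalization (-0.31, adjusted p = 0.0472) and with normexp background correction before it (-0.36, adjusted p = 0.021). The probes of SDHA, SDHC and SDHD disagreed in sign between them, and those used for SDHA and SDHD have design coordinates on another chromosome than the gene.

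In complex III, 3 of 7 members rose, where 17.2% of all genes did, and the median was 0.30. UQCRQ, a small subunit, had levels of 6.07 and 5.79 in shControl cells, 6.76 and 5.69 in shNontarget cells, 6.94 and 6.61 in shBEX2-1 cells, and 6.64 and 6.50 in shBEX2-2 cells. Both sublines lay above shControl, and shNontarget replicate 1 lay within their range. The change of UQCRQ was 0.75 (SE 0.14, adjusted p = 0.00703) against shControl, and 0.60 (SE 0.24, adjusted p = 0.149) against both control vectors. UQCRH, another small subunit, rose by 0.38 (SE 0.10). UQCRFS1, the Rieske iron-sulphur protein, rose by 0.29 (SE 0.094, adjusted p = 0.0491), a call that was lost with the replicate number as a block (adjusted p = 0.075) and with any 1 of the 6 arrays left out (adjusted p from 0.0588 to 0.347). The core proteins UQCRC1 and UQCRC2 had values of 0.056 and -0.12.

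In complex IV, 9 of 14 members rose and none fell, where 17.2% of all genes rose and 16.2% fell. The median was 0.49. COX8A rose by 0.91 (SE 0.12, adjusted p = 0.00135), COX7A2 by 0.88 (SE 0.11, adjusted p = 0.00103) and COX7B by 0.88 (SE 0.11, adjusted p = 0.00106), all of them small subunits of the complex. COX6B1, COX6C, COX6A1, NDUFA4 and COX5A rose by between 0.34 and 0.69. The call of COX5A (0.34, adjusted p = 0.0396) was lost without shControl replicate 2 (adjusted p = 0.316) or any single BEX2-knockdown array (adjusted p from 0.0583 to 0.0685). COX4I1 and COX5B, which lie close to the catalytic core, had values of -0.074 (SE 0.086) and 0.11 (SE 0.11). COX6B2, a paralog of COX6B1, was also called, at 0.71, but the probe used has coordinates on chromosome 6 while the gene lies on chromosome 19, and the other probe of COX6B2 gave -0.063.

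For several subunits of complex IV the array holds paralogs, and many of these were dim. COX4I2 and NDUFA4L2 were well above background on 1 of 8 arrays each, and COX7A1, COX7B2 and COX8C on none, so that none of these 5 was tested. COX6A2, the form of heart and skeletal muscle, was dim, between -5.46 and -4.50, and its change of -0.43 (SE 0.23) was not called, whereas COX6A1 rose by 0.53 (SE 0.10) on a probe with coordinates on chromosome 6, while the gene lies on chromosome 12. COX7A2L, a factor for joining complexes III and IV that resembles COX7A2, had a value of -0.18 (SE 0.095).

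In complex V, 10 of 16 members rose and none fell, where 17.2% of all genes rose and 16.2% fell. The median was 0.37. In the membrane part and the stalks 9 of 11 rose, and in the catalytic F1 part 1 of 5, the small subunit ATP5E (0.52, SE 0.15). The share in the F1 part was near that of all genes, and the difference between the parts was not tested. ATP5A1 and ATP5B, which form the catalytic ring, had values of -0.26 (SE 0.13) and -0.098 (SE 0.13) and did not pass the test.

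Not all of the 3 genes for the c ring were called, and differences between them were not tested. ATP5G1 had levels of 3.01 and 2.81 in shControl cells, 3.77 and 2.61 in shNontarget cells, 3.46 and 3.53 in shBEX2-1 cells, and 3.65 and 3.72 in shBEX2-2 cells, and it rose by 0.68 (SE 0.10, adjusted p = 0.00272). Its probe has coordinates on chromosome 14 while the gene lies on chromosome 17. ATP5G3 rose by 0.36 (SE 0.092), and ATP5G2 had a value of -0.11 (SE 0.11).

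**Figure D3:**
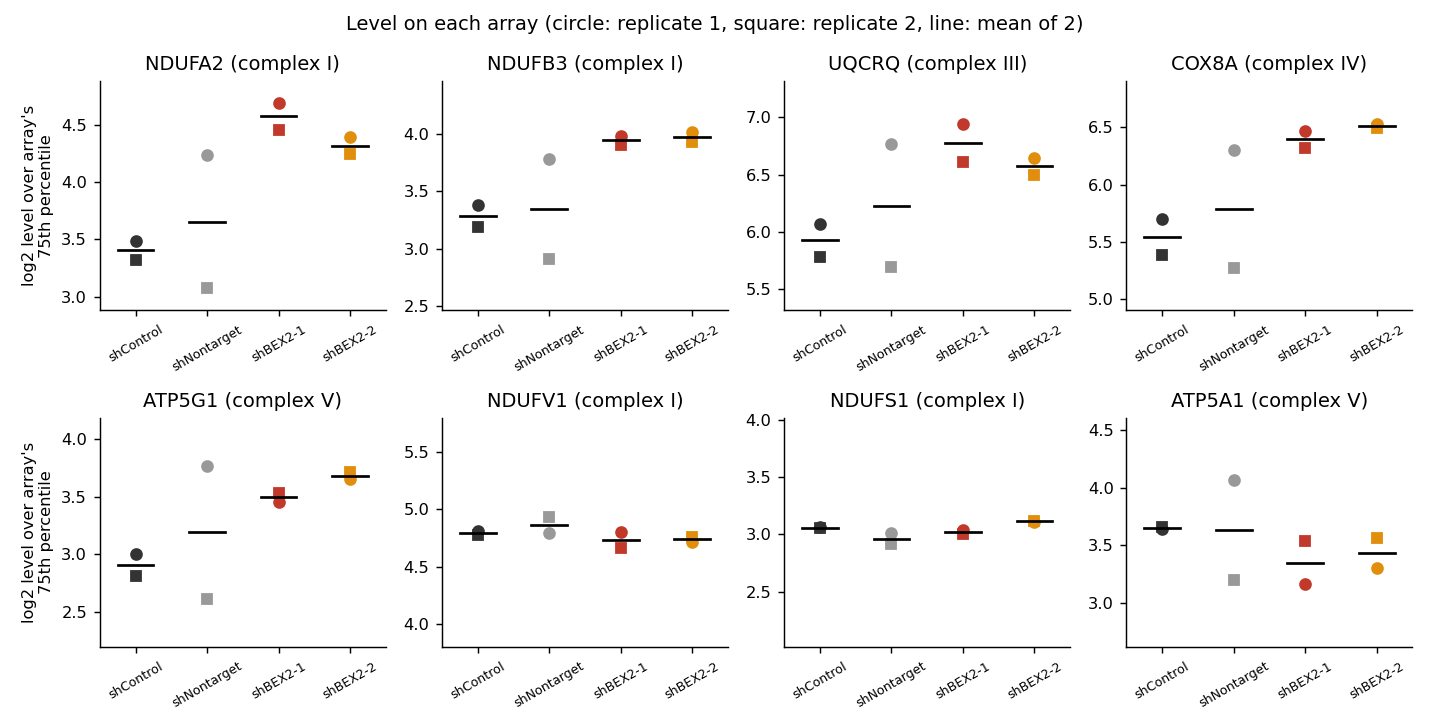
Log2 level over the 75th percentile of the array (y axis, 2 units high in every panel) for 8 members in the 4 vectors. Circles are replicate 1, squares replicate 2 and lines their mean. For NDUFA2, NDUFB3 and COX8A both sublines lie above all control arrays, and for ATP5A1 they lie below both shControl arrays.

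A list of 14 subunits, here called core, was set apart by hand, among them NDUFS1, NDUFV1, the 4 subunits of complex II, UQCRC1, UQCRFS1, COX4I1, COX5A, COX5B, ATP5A1 and ATP5B. The name is loose, since COX4I1, COX5A and COX5B surround a catalytic core that the mitochondrial genome encodes, and since UQCRC2, NDUFV2, NDUFS3, NDUFS7 and NDUFS8, also conserved subunits, are not on the list. Of the 14 listed, COX5A and UQCRFS1 rose and 1 fell against shControl, with a median of -0.027. Across all genes 17.2% rose and 16.2% fell. The probe of COX5A has coordinates on chromosome 14 while the gene lies on chromosome 15, and that of UQCRFS1 on chromosome 22 while the gene lies on chromosome 19. Of the other 63 subunits, 38 rose and none fell, with a median of 0.38. All 4 BEX2-knockdown arrays lay above both shControl arrays in 3 core and 46 other subunits, as in 28.4% of all genes. They lay below both in 3 core and 2 other subunits, as in 26.5% of all genes. The core counts were near these shares. Under quantile normalization the calls were 0 higher and 2 lower among the core subunits and 39 higher and 1 lower among the others. In that setting 34.6% of all genes were called. The difference between the lists was not tested, and 9 tested members, 6 of them called, rest on probes with coordinates on another chromosome than the gene. Without these 9, 35 members rose and 1 fell among 71.

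**Figure D4:**
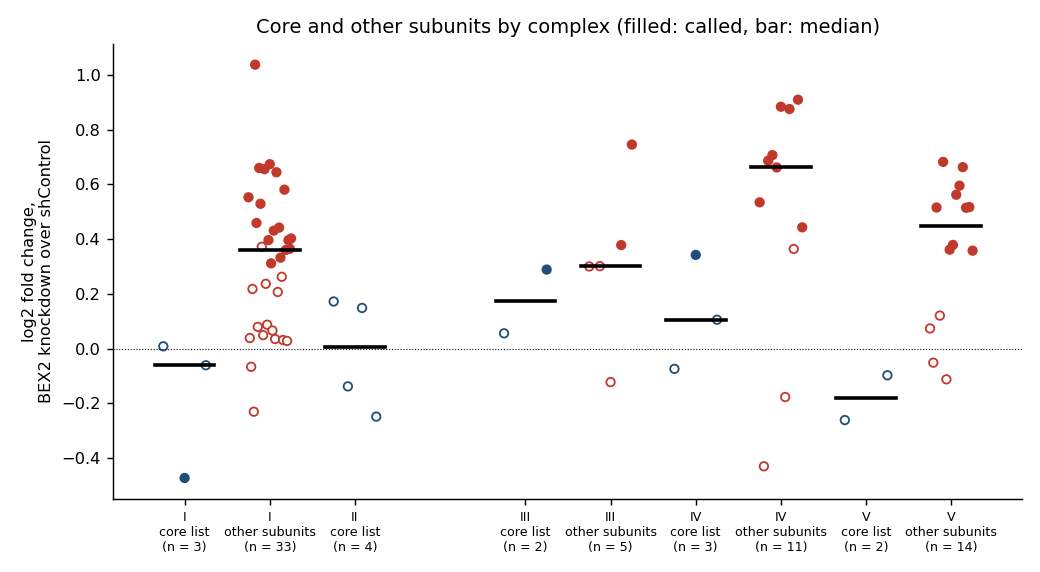
Log2 fold change of BEX2-knockdown over shControl arrays (y axis) for the 14 listed core subunits in blue and the other subunits in red, by complex. Points are genes, filled where called, and bars are medians. The medians of the other subunits lie above those of the core subunits in complexes I, III, IV and V, and all of complex II is on the core list.

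No member was called between the sublines. Against shBEX2-2, shBEX2-1 differed by -0.29 to 0.35 over the 80 members, and 0 were called by limma or had an unadjusted p under 0.05, where 0.00977% of all genes were called, 0.00489% as higher and 0.00489% as lower. Without either shNontarget array, 4 members were called, COX6B2, NDUFA13, NDUFA5 and NDUFB5, all higher in shBEX2-1 cells, where 14.4% of all genes were called without replicate 1 and 14.7% without replicate 2. Against both control vectors in the model with 4 vectors, 0 members were called in shBEX2-1 cells, where 7% of all genes were (3.38% higher and 3.62% lower), and 5 had an unadjusted p under 0.05. In shBEX2-2 cells 0 were called, where 9.67% of all genes were (4.86% higher and 4.81% lower), and 4 had such a p.

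These counts also rested on the shNontarget arrays. Without replicate 1 of shNontarget they were 66 in shBEX2-1 and 58 in shBEX2-2 cells, where 52.9% and 51.5% of all genes were called. Without replicate 2 they were 27 and 30, with 15 and 22 of these lower, or 33.8% and 37.5% of the members against 52.6% and 54.5% of all genes. A setting added after the data were seen took shControl alone as control, with the shNontarget arrays left out of the fit. In shBEX2-1 cells 48 members then rose and 1 fell, where 43.5% of all genes were called (22.8% higher and 20.7% lower). In shBEX2-2 cells 40 rose and 2 fell, where 44.1% of all genes were called (21.6% higher and 22.5% lower). NDUFA2 then rose by 1.17 and 0.91 in the sublines, COX8A by 0.85 and 0.97, UQCRQ by 0.85 and 0.64, and ATP5G1 by 0.59 and 0.78. NDUFA13, an accessory subunit of complex I, fell by 0.41 on the log2 scale in shBEX2-2 cells.

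Between the control vectors, no member was called. The values of shNontarget over shControl ran from -0.32 to 0.58, with a median of 0.14 and 64 of 80 above 0, including all 14 of complex IV. By limma 0 of 80 members passed, as did 0% of all genes, and 0 members had an unadjusted p under 0.05. With 1 of the shNontarget arrays left out, the remaining one differed from shControl in opposite directions. With only replicate 2 kept, 56 members were called, 53 of them lower, where 45.1% of all genes were called, and with only replicate 1 kept, 71 were called, all higher, where 46.3% were. In these fits, and in those of the sublines without a shNontarget array, the lone shNontarget array is assumed to vary like the arrays of the other vectors.

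Among genes around the chain, 14 of 45 tested assembly factors of the complexes rose against shControl and 7 fell, with a median of 0.19, where 17.2% of all genes rose and 16.2% fell. The share that fell was close to that of all genes. COX17, a copper chaperone for complex IV, rose by 1.18 (SE 0.13, adjusted p = 0.000747) against shControl and by 1.09 (SE 0.30, adjusted p = 0.0432) against both control vectors. COX19, another small copper-binding assembly factor, fell by 0.89 (SE 0.24, adjusted p = 0.0279) and by 0.96 (SE 0.23, adjusted p = 0.0254) on the log2 scale.

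Of 12 subunits and carriers that the name rule leaves out, 8 rose and none fell against shControl, with a median of 0.47. Across all genes 17.2% rose and 16.2% fell. USMG5, a small subunit of ATP synthase, rose by 0.83 (SE 0.13), and CYCS, cytochrome c itself, by 0.57 (SE 0.12), while CYC1, the cytochrome c1 of complex III, had a value of 0.036 (SE 0.12). Against both control vectors GPD2, the mitochondrial glycerol phosphate dehydrogenase, was the 1 called gene of this list, at 0.65 (SE 0.12, adjusted p = 0.0107).

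Of 15 regulators of mitochondrial gene expression, 1 rose and 3 fell against shControl, a smaller share in all than the 33.4% of all genes called. GABPB1, the beta subunit of GABP, rose by 0.80 (SE 0.094, adjusted p = 0.000952), and by 0.77 (SE 0.11, adjusted p = 0.00334) against both control vectors. GABPA, its DNA-binding partner, fell by 0.36 (SE 0.099, adjusted p = 0.0294) against shControl, ESRRA, a nuclear receptor that acts on mitochondrial genes, fell by 0.32 (SE 0.081), and MYC fell by 0.52 (SE 0.10). NRF1 had a value of -0.059 (SE 0.22), and PPARGC1A was not tested.

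Genes of proliferation were also higher in BEX2-knockdown cells. All 18 rose against shControl, with a median of 1.61, where 17.2% of all genes rose and 16.2% fell. Against both control vectors 15 rose, with a median of 1.38, where 6.68% of all genes rose. MKI67, a marker of cycling cells, rose by 2.21 (SE 0.17) and TYMS, an enzyme of thymidylate synthesis, by 2.19 (SE 0.26) against shControl. Mitochondrial ribosomal proteins, a list added after the data were seen, had 38 rises and 4 falls among 76 with a median of 0.27, and proteasome subunits, also added, had 20 rises among 37 with a median of 0.31. Cytosolic ribosomal proteins, also added, had 1 rise and 8 falls among 76 with a median of -0.058. The counts of these 3 added lists are against shControl. Against both control vectors 0 genes of either ribosomal list were called and 4 proteasome subunits rose, where 12.9% of all genes were called. The part of proliferation in the respiratory chain values was not tested.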

How the data were processed

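Total RNA of HuCCT1 cells was labelled with Cy3 and hybridized to 8 Agilent arrays. The authors deposited scanner files from Agilent Feature Extraction 10.7.3.1, per the labels, in which the processed intensity is corrected for background within each array and not scaled between arrays. A second deposited table, covering all 8 arrays, gives this intensity again to within 0.497%.

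Control spots were left out and spots marked as outliers were missing values. Intensities were taken to log2, and the 75th percentile of each array was subtracted. A probe was kept if it was well above background on 4 or more of the 8 arrays, and each gene was read from its brightest probe. Tests used R 4.3.3 with limma 3.58.1 (lmFit and eBayes with a trend) on all genes. Called means an adjusted p (Benjamini-Hochberg) under 0.05. The comparison against both control vectors used 8 arrays, that against shControl 6, and single vectors were compared in a model with 4 vectors. The exception was each subline against shControl alone, which was fitted on the 6 arrays without shNontarget. The vector as a random block used statmod 1.5.0. The scripts were tested on simulated data. Figures were drawn with Python 3.11.15 and matplotlib 3.10.9.

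Gene names are those of the array design, and 84 of 85 were found in a RefSeq table. Complexes and roles were assigned by hand. The members and lists were chosen with earlier results of these data known. Named genes are the largest called rise and fall in each complex, isoform sets, 14 core subunits, names that matched without being subunits, and the largest changes of each list. Others, named for completing a count or for their role, were chosen after their values were seen. The main fits did not use the replicate number. It entered only as a block in an alternative fit and in the medians within each number. That use rested on the names of the deposited files, which tie each number to a separate day (what the day marks is not stated). Over 20448 genes, the difference between replicates correlated between vectors with r of 0.26, 0.13, 0.11, -0.063, 0.21 and 0.23. The study's methods name a rank product analysis for the arrays, which was not run here, and a t-test for differences between experimental groups in general, which is called the methods' t-test. Alternatives covered quantile normalization, normexp background correction followed by it, the brightness filter, averaging probes, blocks, other controls, that t-test and each array left out. Values of 1 member are not reported here, although it is counted.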

Additional observations from a re-analysis of the deposited data

Results flagged for a closer look

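A single array far from the rest was seen in 3 of 76 groups of 4 arrays, where chance gives about 1 in 20. The first was COX7A2, at 4.84 on shNontarget replicate 1, while the remaining control arrays spanned 3.98 to 4.12, and the gap made up 0.839 of the range. COX6B2 also peaked there, at 3.65, while the remaining control arrays spanned 2.63 to 2.78 (gap 0.858 of the range). In BEX2-knockdown cells, COX6A1 was lowest on shBEX2-1 replicate 2, at 6.68, while the remaining arrays spanned 6.86 to 6.88 (gap 0.894 of the range).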

How the results depend on the processing

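Against both control vectors, 2 members (2.5%) were called, where 12.9% of all genes were. Under quantile normalization the count was 7 (8.75%), where 14.6% of all genes were called. Normexp background correction and quantile normalization together gave 9 (11.2%, against 15.6% of all genes). The replicate block gave 4 (5%, against 12%), and the vector as a random block 4 (5%, against 16.6%). The count was 0 with no filter on dim probes (12 at an unadjusted p under 0.05), where 6.04% of all genes were called. It was 0 with the methods' t-test (6 at such a p), where 10.6% were. With only shNontarget as control it was 0 (2 at such a p), where 1.66% were. In the model with 4 vectors it was 0 (6 at such a p), where 13.6% were. Leaving out 1 array gave 0 to 37. Against shControl the count of 42 was 26 (32.5%) by the methods' t-test, where 23.6% of all genes were called. It was 34 to 41 with 1 BEX2-knockdown array left out, where 26.6% to 33.3% of all genes were called. The count fell with either shControl array left out, and the medians of those settings are given above. Otherwise the count was between 35 and 44, where 17% to 35.4% of all genes were called.

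For shBEX2-1 the count of 0 was 2 under quantile normalization, 3 with normexp and quantile normalization, 49 with only shControl as control and 0 to 66 with 1 array left out. For shBEX2-2 it was 3, 2, 42 and 0 to 58. Under quantile normalization 2.5% of the members were called in shBEX2-1 and 3.75% in shBEX2-2 cells, where 7.75% and 10.9% of all genes were. With normexp and quantile normalization the shares were 3.75% and 2.5% of the members, where 8.09% and 11% of all genes were called. With only shControl as control they were 61.2% and 52.5%, where 43.5% and 44.1% of all genes were called. For a shNontarget array left out, the shares of all genes are given above. Leaving out 1 array gave 0 to 71 between the control vectors and 0 to 4 between the sublines.

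Against shControl the complex medians moved beyond the spread between arrays under quantile normalization to -0.077 (complex II) and 0.20 (complex III), and with normexp and quantile normalization to 0.23 (complex I), -0.10 (complex II) and 0.20 (complex III). With 1 array left out they ranged from 0.24 to 0.38 (I), -0.059 to 0.037 (II), 0.19 to 0.39 (III), 0.39 to 0.59 (IV) and 0.32 to 0.43 (V), and against both control vectors from 0.098 to 0.47 (I), -0.21 to 0.051 (II), 0.014 to 0.47 (III), 0.18 to 0.53 (IV) and 0.13 to 0.54 (V).

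For the named genes, 964 of the alternative values kept their direction and their side of the threshold, 54 lost the call, 32 gained one and 35 turned in sign. No value that turned was called under either setting. Against both control vectors these were, under quantile normalization without and with normexp, NDUFS1 (-0.028 and -0.018), SDHA (-0.053 and -0.092), UQCRC1 (-0.012 and -0.021) and COX5B (-0.021 and -0.012), with the mean of probes SDHA (-0.11), and with only shNontarget as control COX6A1 (-0.018), SDHA (-0.10) and COX5B (-0.018). Against shControl they were NDUFS1 (-0.087 and -0.078) and UQCRC1 (-0.048 and -0.065) under quantile normalization without and with normexp.

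With 1 array left out, the genes that turned ranged against both control vectors from -0.36 to 0.048 (COX4I1), -0.47 to 0.086 (COX7A2L), -0.28 to 0.11 (ATP5G2), -0.021 to 0.15 (SDHA), -0.48 to 0.050 (SDHB), -0.0012 to 0.51 (SDHC), -0.41 to 0.051 (SDHD), -0.072 to 0.20 (UQCRC1), -0.044 to 0.17 (COX5B), -0.17 to 0.15 (ATP5S) and -0.13 to 0.19 (ATP5SL). Against shControl they ranged from -0.18 to 0.031 (COX4I1), -0.0078 to 0.029 (NDUFS1), -0.011 to 0.12 (UQCRC1) and -0.020 to 0.089 (ATP5S). The cause of these changes was not tested. The replicate block moved no other count of calls by over 1.5 times.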

Other observations

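COX4NB, now EMC8, matched the name rule without being a subunit of the chain, and it rose by 0.57 (SE 0.090, adjusted p = 0.00302 by limma) against shControl. ATP5S (0.034, SE 0.11) and ATP5SL (-0.075, SE 0.080) did not pass the test. NDUFA4L2, a paralog of NDUFA4, lay lower on all 4 BEX2-knockdown arrays (-7.49 to -6.71) than on the 4 control arrays (-6.59 to -4.87), but it was well above background on only 1 of 8 arrays and was not tested.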
